A study of Homo sapiens with 14 samples.

Results

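BIX-01294 and BRD4770, inhibitors of the same pair of histone methyltransferases, were compared directly through 1 RNA-seq library each, 2 of the 14 libraries of the study. The cells were U2OS, an established line of human osteosarcoma, in all of them, and both compounds were read from the replicate 1 table, which held 10 libraries. The compounds had been given at different doses and for different times: BIX-01294 at 5 μM for 12 h and BRD4770 at 20 μM for 24 h. The other libraries of that table were the solvent DMSO at 0.5% by volume with no time stated, GSK-J4 (20 μM, 12 h), 2-PCPA (1 mM, 12 h), and, each for 24 h, GSK343 at 10 μM, rapamycin at 5 μM, SAHA at 1 μM, UNC1215 at 50 μM and VPA at 20 μM. As background, GSK-J4 acts on KDM6 demethylases, 2-PCPA (tranylcypromine) on the demethylase KDM1A, GSK343 on the methyltransferase EZH2, rapamycin on mTOR, SAHA and VPA on histone deacetylases, and UNC1215 on the methyl-lysine reader L3MBTL3. Neither EHMT inhibitor was replicated, so every difference between them is a description without a p-value, and compound, dose and time cannot be told apart. In a bulk library a lower share of cells expressing a gene and less RNA per cell cannot be told apart either.

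The EHMT enzymes, EHMT1 (also called GLP) and EHMT2 (also called G9a), work as a pair that places mono- and dimethyl groups on lysine 9 of histone H3, a mark of silent euchromatic genes. The zinc finger proteins WIZ and ZNF644 bring the pair to chromatin, and the mark is removed by demethylases of the KDM3 and KDM4 families. BIX-01294 was described as a blocker of the histone peptide site of the enzymes, and BRD4770 was made as a mimic of the methyl donor S-adenosylmethionine. Loss of EHMT activity is known for release of germline genes, and EHMT inhibitors are also known as inducers of autophagy in cultured cells. The comparison asks where the transcriptomes of cells given these compounds differed.

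Values are FPKM, fragments scaled by transcript length and by library size, as the authors deposited them. Differences are BIX-01294 minus BRD4770 in log2(FPKM + 1), which understates the change of low genes, over the 12804 genes whose mean across the 10 libraries reached 1 FPKM. As a yardstick, the 4 groups with 2 replicates (DMSO, 2-PCPA, GSK343 and rapamycin) were used, and the spread that remained after group and table effects gave a replicate SD for a difference between libraries, with 3 degrees of freedom. Its median was 0.33 and its 90th percentile 0.59 over the 12058 genes that had one. The labels do not say that these replicates were separate cultures, so the yardstick may hold technical spread only. Where a ± follows the difference of a gene below, it gives this SD, and "the other 8 libraries" are all but the 2 compared, DMSO included.

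The BIX-01294 library was the shallowest of the table, at 0.559 of the depth of DMSO as judged from low FPKM values, against 0.812 for BRD4770 and up to 1.24 for SAHA. Of the tested genes, 323 were listed at 0 with BIX-01294, 226 with BRD4770 and 156 to 229 in the other 8 libraries. The 2-PCPA library stood apart, with a median difference from DMSO of −0.43 where the other treated libraries lay between −0.06 and 0.06. Of 13 markers of mesenchymal and osteosarcoma cells, 10 had at least 1 FPKM in each library, though not the same 10. Of the 2 compounds, RUNX2 reached it only with BIX-01294 (1.28 and 0.629 FPKM) and ALPL only with BRD4770 (0.688 and 4.76 FPKM). For RUNX2 both lay below the other 8 libraries, which had 1.48 to 5.27 FPKM. TWIST1 was at 0 in all 10 libraries. The summed level was 2993 FPKM with BIX-01294 and 3379 FPKM with BRD4770 (1881 to 3957 FPKM in the others). Of 9 blood and 5 endothelial markers, 0 reached 1 FPKM in either library. Epithelial markers summed to 8.68 and 4.56 FPKM with 3 of 8 at 1 FPKM or more in each, and KRT19 was at 0 in all 10 libraries. Neuronal markers summed to 11.9 and 11.1 FPKM, with 2 of 6 at that level with BIX-01294 and 3 of 6 with BRD4770.

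The targets themselves gave little to compare. EHMT1 was at 8.11 FPKM with BIX-01294, 7.79 FPKM with BRD4770 and 7.64 FPKM with DMSO, inside the 5.51 to 12.2 FPKM of the other 8 libraries, and the difference of 0.05 was smaller than its replicate SD of 0.24. EHMT2 was listed at 0 in all 10 libraries of the replicate 1 table. In the replicate 2 table, which holds neither compound, it was at 24.8 to 33.8 FPKM, so its row in the first table cannot be read as absence of the transcript. RPS18, a ribosomal protein gene used by every cell, was likewise at 0 in the first table and at 2185 to 2927 FPKM in the second. WIZ was at 12.2 and 12.1 FPKM, a difference of 0.02 ± 0.33. ZNF644 was at 23 FPKM with BIX-01294 and 9.16 FPKM with BRD4770, where the other 8 libraries had 6.16 to 13.8 FPKM, a difference of 1.24 ± 0.47 that placed BIX-01294 above all of them.

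Across all tested genes, 1529 (11.9%) were at least 2-fold higher with BIX-01294 than with BRD4770 and 1162 (9.08%) at least 2-fold lower, together 21% of the genes. By list median, the highest groups with BIX-01294 were metallothioneins, immediate early genes, replication-dependent histones, feedback regulators of MAP kinases, clock genes and cholesterol synthesis genes, and the lowest were hypoxia targets and glycolytic enzymes. The median difference was 0.11, and the middle range ran from −0.40 at the lower quartile to 0.60 at the upper quartile. Levels in the 2 libraries correlated at r = 0.885 across genes, which are not independent replicates, and over all pairs of libraries r ran from 0.862 to 0.964. By genes past 2-fold, the pair ranked 9 of 45. All pairs with BIX-01294 held ranks from 1 to 15 (2049 to 3459 genes), and 6 of the other 8 libraries were further from BIX-01294 than BRD4770 was.

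The balance between the directions depended on the scale. On the deposited scale 56.8% of the called genes were higher with BIX-01294. With the libraries centred on their medians, which takes away the shift of 0.11, there were 1219 higher and 1385 lower genes (46.8% higher). Scaling to equal FPKM sums gave 1377 and 1713 (44.6% higher), and quantile normalization gave 1103 and 1119 (49.6% higher). The scaling to equal sums also raised all values before the constant of the log2 scale was added. More low genes can then pass 2-fold, so its counts do not reflect equal sums alone. List medians below have the median of all genes subtracted and are called relative medians. Each list also has a replicate SD, again printed after ±, from its median level in each library of the replicated groups. The median of all genes was not subtracted for this SD. A shift of a whole library, such as that of tranylcypromine described above, therefore enters it. The SD is thus only a rough guide to the spread of a relative median, also where the text compares them. Genes listed at 0 with BIX-01294 made up 144 of the lower genes, and 79 of the higher genes were listed at 0 with BRD4770. Without such rows the counts were 1450 higher and 1018 lower.

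**Figure D1:**
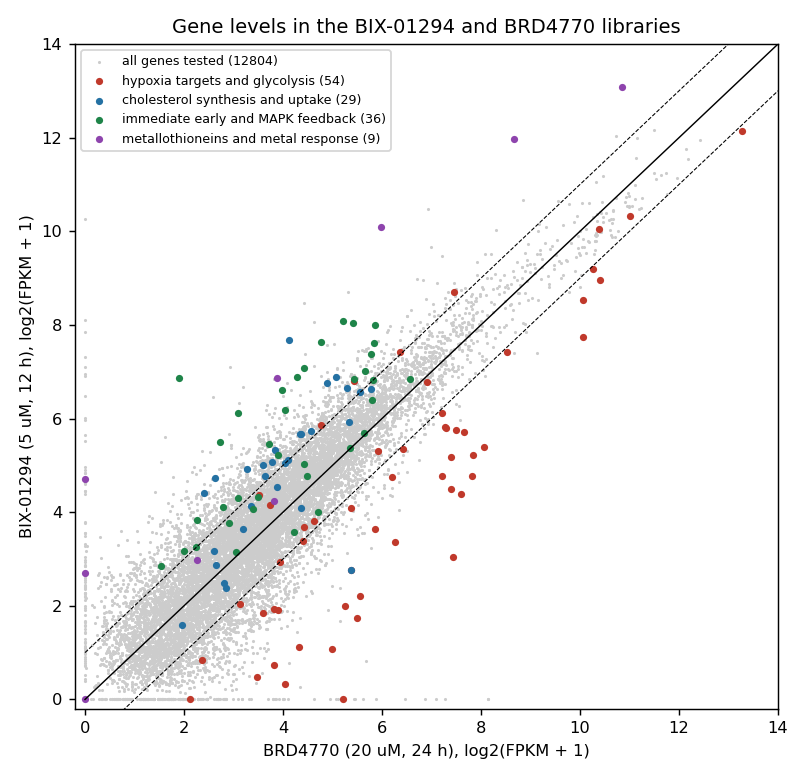
Level of each of 12804 tested genes with BRD4770 (x axis) and BIX-01294 (y axis), both log2(FPKM + 1), with coloured gene lists; the solid line marks equal levels and the dashed lines a 2-fold difference. Hypoxia and glycolysis genes (red) lie mostly below the lower dashed line, and metallothioneins (purple) and immediate early and MAPK feedback genes (green) mostly above the diagonal.

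Among the called genes, BIX-01294 was the outermost library more often than BRD4770. It was the highest of all 10 libraries for 1171 of the 1529 higher genes (76.6%) and the lowest for 714 of the 1162 lower genes (61.4%). BRD4770 was the lowest library for 385 of the higher genes (25.2%) and the highest for 374 of the lower genes (32.2%). The genes were chosen by the difference between these 2 libraries, and the BIX-01294 library was the shallowest. These shares therefore cannot say on which side the differences arose. By list it varied: relative medians against DMSO with BIX-01294 and BRD4770 were −0.05 and 2.15 for hypoxia targets. For immediate early genes they were 2.62 and 0.87. The same shares over all tested genes were not computed. Counts of the highest or lowest library given below for immediate early, mitosis and ribosome biogenesis genes therefore have no background beside them. Against DMSO, 1276 genes were at least 2-fold higher (9.97%) and 773 lower (6.04%) with BIX-01294, and 761 were higher (5.94%) and 620 lower (4.84%) with BRD4770. The 2 contrasts share the DMSO library.

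The time of treatment could be followed only through the other compounds. Against GSK-J4, the other 12 h library with an unshifted median, BIX-01294 was also at least 2-fold higher for 798 of the higher genes (52.2%) and at least 2-fold lower for 695 of the lower genes (59.8%). With the shifted 2-PCPA library required as well, these counts were 674 (44.1%) and 181 (15.6%). BRD4770 was past 2-fold against all 5 other 24 h libraries for 98 of the higher genes (6.41%) and 145 of the lower genes (12.5%).

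Cells given BRD4770 carried far more transcript of hypoxia-induced genes than cells given BIX-01294. These genes are targets of the HIF transcription factors, which are destroyed in the presence of oxygen by prolyl hydroxylases that need iron and 2-oxoglutarate. Of 32 tested hypoxia targets outside glycolysis, 25 were at least 2-fold lower with BIX-01294 and 3 at least 2-fold higher, against 9.08% and 11.9% of all genes, and the list median lay at −2.27 ± 0.21 relative to all genes. Of 22 glycolysis genes, 17 were at least 2-fold lower and 1 higher, with a relative median of −1.55 ± 0.34. Against the shared DMSO library, the relative medians of the hypoxia list were −0.05 with BIX-01294, 2.15 with BRD4770 and 2.52 with GSK-J4, and those of glycolysis were 0.03, 1.5 and 1.67.

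The proximal promoters of some of these genes are shown because they hold the short core of the hypoxia response element, to which HIF binds. Each is the 250 bases before the first listed start of the gene in RefSeq on GRCh38.p14, a later build than the hg19 of the data, and is written 5′ to 3′ on the strand of the gene. Capitals mark ACGTG or GCGTG on either strand, with overlapping matches merged. CA9 (chr9:35673678-35673927, plus strand) encodes carbonic anhydrase 9 and ANKRD37 (chr4:185396591-185396840, plus strand) an ankyrin repeat protein. BNIP3 (chr10:131981924-131982173, minus strand) encodes a mitophagy receptor and PGK1 (chrX:78103998-78104247, plus strand) phosphoglycerate kinase 1.
CA9: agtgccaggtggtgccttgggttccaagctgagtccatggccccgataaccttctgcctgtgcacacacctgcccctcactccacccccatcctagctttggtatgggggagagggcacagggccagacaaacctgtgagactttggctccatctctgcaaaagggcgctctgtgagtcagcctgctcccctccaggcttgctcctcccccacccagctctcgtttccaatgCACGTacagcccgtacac
ANKRD37: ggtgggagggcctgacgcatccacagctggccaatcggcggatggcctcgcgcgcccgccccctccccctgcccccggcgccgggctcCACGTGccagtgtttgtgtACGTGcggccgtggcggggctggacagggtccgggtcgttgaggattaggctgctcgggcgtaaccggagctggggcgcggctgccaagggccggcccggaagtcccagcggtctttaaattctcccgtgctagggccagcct
BNIP3: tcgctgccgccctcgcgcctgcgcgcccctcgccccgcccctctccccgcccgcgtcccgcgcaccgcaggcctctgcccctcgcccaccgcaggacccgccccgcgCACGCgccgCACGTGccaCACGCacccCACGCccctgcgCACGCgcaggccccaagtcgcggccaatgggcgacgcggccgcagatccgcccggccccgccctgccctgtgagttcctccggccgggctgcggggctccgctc
PGK1: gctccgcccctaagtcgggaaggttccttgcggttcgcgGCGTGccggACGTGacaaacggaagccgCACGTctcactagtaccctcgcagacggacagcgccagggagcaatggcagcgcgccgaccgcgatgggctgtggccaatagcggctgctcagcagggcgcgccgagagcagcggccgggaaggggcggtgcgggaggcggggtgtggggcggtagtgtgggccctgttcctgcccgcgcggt
Such a match was present in 19 of the 24 hypoxia genes with a promoter entry (79.2%) and in 12 of 21 glycolysis genes (57.1%), where 43.1% of all 27305 promoters of that length held one. For ACGTG alone the shares were 14 of 24 (58.3%), 8 of 21 (38.1%) and 18.7% of all promoters. A match describes the letters of the window and is not evidence of binding.

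CA9 was listed at 0 with BIX-01294, was at 36.1 FPKM with BRD4770 and 25.9 FPKM with GSK-J4, and stayed at or below 0.609 FPKM, its DMSO value, in the other 7 libraries. DDIT4, which restrains mTORC1 in low oxygen, was at 7.2 FPKM with BIX-01294 and 171 FPKM with BRD4770, where the other 8 libraries had 3.25 to 639 FPKM with a median of 20.1, a difference of −4.39 ± 0.48. BNIP3 was at 26.1 FPKM with BIX-01294, 226 FPKM with BRD4770, 248 FPKM with GSK-J4 and 19 FPKM with DMSO (−3.06 ± 0.44). For these genes BRD4770 and GSK-J4 formed the high pair, and BIX-01294 lay near or below the solvent control. ANKRD37 showed the same order at a lower level, with 0.669 FPKM with BIX-01294, 13.2 with BRD4770, 20.3 with GSK-J4 and 2.0 with DMSO. Collagen hydroxylases were part of it: P4HA1 was at 21.5 and 168 FPKM (−2.91 ± 0.21) and PLOD2 at 35.2 and 167 FPKM (−2.22 ± 0.35). EGLN3, one of the HIF prolyl hydroxylases and itself a HIF target, was at 0.384 FPKM with BIX-01294, 10 FPKM with BRD4770 and 48.3 FPKM with GSK-J4.

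Further members with differences below −3 were ANKZF1 at 1.12 against 30.7 FPKM (−3.90 ± 0.49), STC1 at 0.263 against 15.4 FPKM (−3.70 ± 0.18), HILPDA at 3.62 against 46.1 FPKM (−3.35 ± 0.37) and FAM162A at 20.1 against 193 FPKM (−3.21 ± 0.24). STC1 is a secreted glycoprotein and HILPDA an inhibitor of lipid breakdown at lipid droplets. HIF1A and BHLHE40 were among the 3 members that went the other way. HIF1A, the oxygen-regulated subunit itself, was at 111 FPKM with BIX-01294, 42.1 FPKM with BRD4770 and 29.9 to 71.4 FPKM in the other 8 libraries (1.37 ± 0.40). BHLHE40, a transcriptional repressor that is also a clock gene, was at 169.8, 81 and, with DMSO, 16.5 FPKM, so both compounds were above the control. VEGFA, the angiogenic growth factor, was at 38.3 FPKM with BIX-01294, 59.9 FPKM with BRD4770 and 14 FPKM with DMSO, a difference of −0.63 ± 0.30 that did not reach 2-fold.

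In glycolysis, the lower levels with BIX-01294 ran from glucose uptake to lactate formation. PGK1 was at 213 FPKM with BIX-01294 and 1071 FPKM with BRD4770, against 137 to 1675 FPKM with a median of 176 in the other 8 libraries (−2.32 ± 0.22). ALDOC, an aldolase, was at 2.35 and 44 FPKM (−3.75 ± 0.81), and PFKFB4, which makes the activator of phosphofructokinase, at 3.0 and 37.3 FPKM (−3.26 ± 0.33). ENO2, an enolase, was at 36.4 and 229 FPKM, with 28.1 FPKM with DMSO (−2.62 ± 0.43). Again BIX-01294 lay near the control, and BRD4770 near GSK-J4, whose ENO2 level was 255 FPKM. The glucose transporter SLC2A1 was at 53 and 179.8 FPKM, and LDHA, which forms lactate, at 498 and 1358 FPKM. The exception was another glucose transporter, SLC2A3, at 57 FPKM with BIX-01294, 26.2 FPKM with BRD4770 and 5.29 FPKM with DMSO (1.09 ± 0.34).

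**Figure D2:**
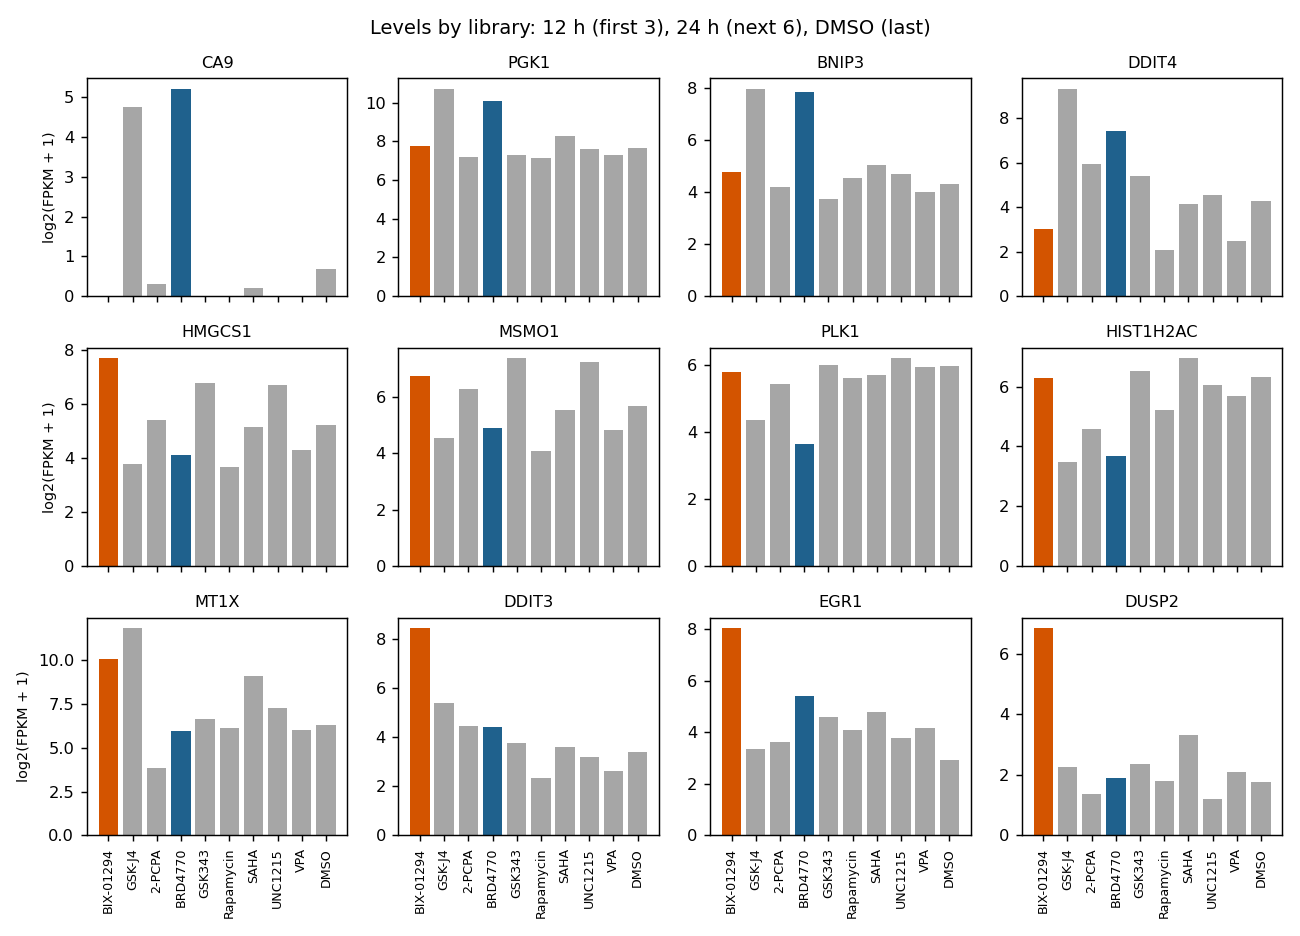
Level of 12 genes in each of the 10 libraries of the replicate 1 table as log2(FPKM + 1), 1 bar per library, with BIX-01294 in orange, BRD4770 in blue and all others in grey. CA9, PGK1, BNIP3 and DDIT4 are high with BRD4770 and GSK-J4, PLK1 and HIST1H2AC are lowest in the same pair, and DDIT3, EGR1 and DUSP2 are highest with BIX-01294.

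Further large differences belonged to single genes outside these lists. TXNIP, which blocks glucose uptake and binds thioredoxin, was at 2.24 FPKM with BIX-01294 and 44.4 FPKM with BRD4770, where the other 8 libraries had 0.574 to 6.32 FPKM (−3.81 ± 0.39). Here BRD4770 stood alone, since GSK-J4 had only 2.4 FPKM. Its relative ARRDC4 was at 2.24 and 8.61 FPKM, with 1.38 FPKM with GSK-J4 and 0.155 FPKM with DMSO (−1.57 ± 0.26). PPP1R3C, which directs a phosphatase to glycogen, was at 0.204 FPKM with BIX-01294, 19.2 FPKM with BRD4770 and 23.8 FPKM with GSK-J4 (−4.07 ± 0.38). ESM1, an endothelial proteoglycan, was listed at 0 with BIX-01294 and was at 42.4 FPKM with BRD4770, 28.2 FPKM with GSK-J4 and 0.431 FPKM with DMSO. Its replicate SD was wide (−5.44 ± 1.12): with rapamycin it was at 6.78 FPKM here and at 38.4 FPKM in the replicate 2 table. The endothelial markers PECAM1 and KDR were at 0 in both libraries, and CDH5, VWF and TEK did not exceed 0.809 FPKM. SLAMF9, an immune receptor, was listed at 0 with BIX-01294 and was at 12 FPKM with BRD4770 and 29.1 FPKM with GSK-J4. FUT11, a fucosyltransferase, was at 2.2 against 34.6 FPKM (−3.47 ± 0.15), and BCL2A1, a survival protein of the BCL2 family, at 0.716 against 16.5 FPKM (−3.35 ± 0.28).

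Genes of cholesterol synthesis and uptake were higher with BIX-01294 than with BRD4770. They are driven by SREBP2, which moves to the nucleus when sterols are short. Of 29 tested members, 17 were at least 2-fold higher with BIX-01294 and 1 at least 2-fold lower, and the relative median was 0.90 ± 0.46. Against the shared DMSO library, the relative medians were 0.22 with BIX-01294, within that SD of the control, and −0.81 with BRD4770, and GSK-J4 gave −0.95. HMGCS1, a synthase early in the pathway, was at 204 FPKM with BIX-01294, the highest of all 10 libraries, and at 16.3 FPKM with BRD4770, while the other 8 libraries had 11.5 to 109 FPKM with a median of 35 (3.56 ± 0.46).

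The same order held for INSIG1, which retains the SREBP complex in the endoplasmic reticulum, at 20.3 and 4.28 FPKM (2.02 ± 0.53), and for the sterol oxidase MSMO1 at 107 and 28.6 FPKM (1.87 ± 0.66). HMGCS1 was the only member of the list at its highest with BIX-01294: for the others another library was higher. INSIG2, a related retention protein that also stands in the hypoxia list, was the 1 lower member, at 5.82 and 40.2 FPKM (−2.59 ± 0.49). Of 18 genes of fatty acid synthesis, 1 (5.56%) was at least 2-fold higher and 0 were lower, both below the 11.9% and 9.08% of all genes, with a relative median of 0.38 ± 0.37. That member was FASN, fatty acid synthase, at 59.2 and 22.6 FPKM, with 50.9 FPKM with DMSO (1.35 ± 0.68).

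Mitotic transcripts were lower with BRD4770 than with BIX-01294. Of 44 genes of G2 and mitosis, 15 were at least 2-fold higher with BIX-01294 and 0 lower, 42 differed in that direction at any size, and the relative median was 0.69 ± 0.21. Against the shared DMSO library, the relative medians were −0.16 with BIX-01294, −0.88 with BRD4770 and −0.98 with GSK-J4, and BRD4770 was the lowest of all 10 libraries for 17 of the 44. PLK1, the kinase that drives entry into mitosis, was at 55.2 FPKM with BIX-01294, 11.6 FPKM with BRD4770, 19.4 FPKM with GSK-J4 and 62.2 FPKM with DMSO (2.16 ± 0.25). CCNB1, the mitotic cyclin B1, was at 119.7 and 40.1 FPKM, with 128 FPKM with DMSO (1.55 ± 0.22). CKS2, a small partner of the cyclin-dependent kinases, was at 498 FPKM with BIX-01294, above all other libraries (110.3 to 288 FPKM), and at 112 FPKM with BRD4770 (2.14 ± 0.16). KIF18A, a kinesin of chromosome alignment, was at 27.3 and 7.67 FPKM (1.71 ± 0.19).

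Genes of DNA replication did not follow. Of 40 S phase genes, 0 were at least 2-fold higher with BIX-01294 and 5 (12.5%) were lower, the latter near the 9.08% of all genes. The relative median was −0.23 ± 0.26, less than its replicate SD. ORC1, a subunit of the origin recognition complex, was at 5.38 and 15 FPKM, with 8.24 to 14.2 FPKM in the other 8 libraries (−1.32 ± 0.26), and the flap endonuclease FEN1 was at 58.4 and 129.8 FPKM (−1.14 ± 0.41). Among 17 G1 cyclins and inhibitors of cyclin-dependent kinases, 2 (11.8%) were higher and 1 (5.88%) was lower, beside 11.9% and 9.08% of all genes. The relative median was 0.31 ± 0.38, less than its replicate SD. CDKN1A, the inhibitor p21, was at 244 FPKM with BIX-01294, 113 FPKM with BRD4770 and 35.9 to 105 FPKM in the other 8 libraries (1.10 ± 0.52), so both compounds were above every other library. CDKN2C, the inhibitor p18, was at 9.17 and 24.9 FPKM (−1.35 ± 0.36).

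Replication-dependent histone genes, 24 of 57 tested, had 14 members at least 2-fold higher with BIX-01294 and 0 lower, with a relative median of 1.25 ± 0.13, or 0.89 without rows at 0 in either library and 0 with no filter on low values. Their main mRNAs end in a stem-loop and not in a poly(A) tail, so poly(A)-selected libraries hold mostly their polyadenylated forms, and reads of near-identical copies can be split between genes. HIST1H2AC was at 76.9 FPKM with BIX-01294 and 11.8 FPKM with BRD4770, with 10 FPKM with GSK-J4 and 79.2 FPKM with DMSO (2.61 ± 0.63). HIST1H4C was at 20.9 FPKM with BIX-01294, was listed at 0 with BRD4770 and did not exceed 5.6 FPKM in the other libraries (4.45 ± 0.75). In the replicate 2 table, which holds neither compound, it was at 14.3 to 42.2 FPKM, so its level differed between the tables. HIST1H4B and HIST1H2AB were at 6.18 and 5.44 FPKM with BIX-01294 and were listed at 0 with BRD4770. Against DMSO the list lay at −0.21 with BIX-01294, −1.35 with BRD4770 and −1.37 with GSK-J4 relative to all genes, so BIX-01294 was near the control and the latter pair below it.

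Metallothioneins, small proteins that bind zinc and copper and are induced by the metal-sensing factor MTF1, were higher with BIX-01294. Of 9 tested members of the metallothionein and metal response list, 6 were at least 2-fold higher and 0 lower, and the relative median was 2.59 ± 0.14. It was 2.49 without rows at 0 in either library, 2.16 with a pseudocount of 5 and 1.46 with no filter on low values. Relative to DMSO, the medians were 2.82 with BIX-01294, 0.01 with BRD4770 and 4.44 with GSK-J4, so this is a group in which GSK-J4 lay on the side of BIX-01294. The promoters of MT1X (chr16:56682220-56682469, plus strand) and MT2A (chr16:56608334-56608583, plus strand), GRCh38.p14 as above, are shown for their metal response elements. Capitals mark TGCACNC or TGCGCNC on either strand, with overlapping matches merged.
MT1X: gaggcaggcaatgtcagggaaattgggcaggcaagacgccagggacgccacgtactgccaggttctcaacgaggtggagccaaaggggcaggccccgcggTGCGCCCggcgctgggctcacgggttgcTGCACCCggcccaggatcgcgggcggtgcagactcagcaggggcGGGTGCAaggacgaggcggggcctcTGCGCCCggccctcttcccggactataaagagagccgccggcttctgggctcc
MT2A: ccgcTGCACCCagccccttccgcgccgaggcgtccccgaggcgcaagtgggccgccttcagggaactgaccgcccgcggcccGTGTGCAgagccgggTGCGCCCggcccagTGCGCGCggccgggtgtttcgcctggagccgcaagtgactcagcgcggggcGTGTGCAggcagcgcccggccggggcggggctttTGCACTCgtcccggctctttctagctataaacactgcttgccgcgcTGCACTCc
The window of MT1X held 4 matches and that of MT2A 7. A match was present in 5 of the 7 members with an entry (71.4%) and in 24.7% of all promoters. MT1E and MT1G had no entry.

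MT1X was at 1082 FPKM with BIX-01294, 61.7 FPKM with BRD4770, 3699.7 FPKM with GSK-J4 and 78.9 FPKM with DMSO (4.11 ± 0.58). MT1E was at 4029.5 and 406 FPKM (3.31 ± 0.29), and MT2A at 8671 and 1850.2 FPKM, with 982 FPKM with DMSO (2.23 ± 0.19). These genes are close copies of each other, so the split of reads between them is uncertain. MT1G was at 25.1 FPKM with BIX-01294 and 362 FPKM with GSK-J4 and was listed at 0 with BRD4770 and DMSO. SLC30A1, the zinc exporter of the plasma membrane and no copy of a metallothionein, was at 115 FPKM with BIX-01294, the highest of the table, and at 13.7 FPKM with BRD4770, with 10.5 FPKM with DMSO (2.99 ± 0.33).

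Immediate early genes, which growth factor and stress kinases switch on without new protein synthesis, were highest with BIX-01294. Of 22 tested, 15 were at least 2-fold higher with BIX-01294 than with BRD4770 and 0 lower, with a relative median of 1.29 ± 0.39, and BIX-01294 was the highest of the 10 libraries for 18. Against the shared DMSO library, the relative medians were 2.62 with BIX-01294 and 0.87 with BRD4770. EGR1, a zinc finger factor, was at 263 FPKM with BIX-01294, 41.4 FPKM with BRD4770 and 6.49 to 26.8 FPKM with a median of 14.3 in the other 8 libraries (2.64 ± 0.35). Both compounds were thus above every other library for EGR1. FOS was at 44.1 and 5.66 FPKM, with 0.882 FPKM with DMSO (2.76 ± 0.35), and FOSL1, another subunit of the AP-1 factor, was at 269 and 36.2 FPKM, with 17.9 FPKM with DMSO (2.86 ± 0.26). KLF10 was at 199 and 26 FPKM (2.88 ± 0.29), and ARC, known from synapses, at 135 and 20.4 FPKM (2.66 ± 0.27).

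The EGR1 promoter (chr5:138465229-138465478, plus strand, GRCh38.p14) is shown for the CArG box, the site of serum response factor, which marks a part of these genes. Capitals mark the 2 matches found on either strand.
EGR1: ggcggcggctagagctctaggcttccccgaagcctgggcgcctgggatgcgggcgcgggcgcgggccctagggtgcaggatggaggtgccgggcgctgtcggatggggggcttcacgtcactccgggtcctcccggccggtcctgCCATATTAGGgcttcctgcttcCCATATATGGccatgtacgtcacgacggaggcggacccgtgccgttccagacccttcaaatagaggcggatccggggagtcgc
In the same window, 2 of 17 immediate early genes with an entry held a match (11.8%) and 0 of 11 MAPK feedback genes, where 1.14% of all promoters did. FOS and DUSP2 had none in these 250 bases.

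Negative regulators of the MAP kinase cascade were higher as well. Of 14 tested, 8 were at least 2-fold higher with BIX-01294 and 0 lower, with a relative median of 0.99 ± 0.27, or 0.61 with a pseudocount of 5. DUSP2, a nuclear phosphatase of MAP kinases, had the largest difference among the named genes that were above 0 in both libraries: 115 FPKM with BIX-01294, 2.73 FPKM with BRD4770 and at most 8.86 FPKM in the other 8 libraries (4.96 ± 0.31). SPRY2, an inhibitor of receptor kinase signalling, was at 68.4 and 7.55 FPKM (3.02 ± 0.47). DUSP5 was at 71.8 FPKM with BIX-01294, 15.5 FPKM with BRD4770 and 1.39 FPKM with DMSO (2.14 ± 0.78), and DUSP1 at 196 and 56.2 FPKM (1.78 ± 0.86). GEM, a small GTPase induced by mitogens, was at 136 FPKM with BIX-01294 and 6.65 FPKM with BRD4770, where the other 8 libraries had 2.84 to 7.55 FPKM (4.16 ± 0.29).

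Among 24 targets of YAP and TGF-beta, which report on cell tension and growth, 10 were at least 2-fold higher and 0 lower, with a relative median of 0.71 ± 0.49. ANKRD1 was at 1431 FPKM with BIX-01294, 121 FPKM with BRD4770 and 67.2 to 278 FPKM in the other 8 libraries (3.56 ± 0.42). The growth factor TGFB2 was at 38.3 and 8.7 FPKM, with 29 FPKM with DMSO (2.02 ± 0.57), and the receptor kinase AXL at 172 and 48.9 FPKM, with 110.0 FPKM with DMSO (1.80 ± 0.32). For TGFB2 and AXL, BRD4770 lay below DMSO and BIX-01294 above it. INHBA, an activin subunit, was above DMSO with both, at 89.4, 29.1 and 12.5 FPKM (1.59 ± 0.65).

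Secreted factors of the senescence-associated list, 18 of 38 tested, had 7 members at least 2-fold higher with BIX-01294 and 1 lower, with a relative median of 0.51 ± 0.66, less than its replicate SD. Without a filter on low values the relative median was 0, and with 2-PCPA left out of the filter it was 0.30. Against the shared DMSO library, the relative medians were 0.98 with BIX-01294 and 1.05 with BRD4770. LIF, a cytokine of the IL6 family, was at 114 and 13 FPKM, with 17 FPKM with DMSO (3.03 ± 0.88), and IL11, of the same family, at 60, 20.5 and 5.46 FPKM (1.51 ± 0.41). The lower member was TIMP1, an inhibitor of metalloproteases, at 449 and 1018 FPKM (−1.18 ± 0.33). Of 15 genes of NF-kB feedback, 3 (20%) were higher and 1 (6.67%) was lower, beside 11.9% and 9.08% of all genes. The relative median was 0.64 ± 0.30, or 0.22 with a filter at a mean of 5 FPKM. TNFAIP3, the ubiquitin editor A20, was at 20.5, 4.61 and 1.48 FPKM (1.94 ± 0.24), and NFKBIE, an inhibitor of NF-kB, at 23.8 and 5.91 FPKM (1.85 ± 0.26).

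**Figure D3:**
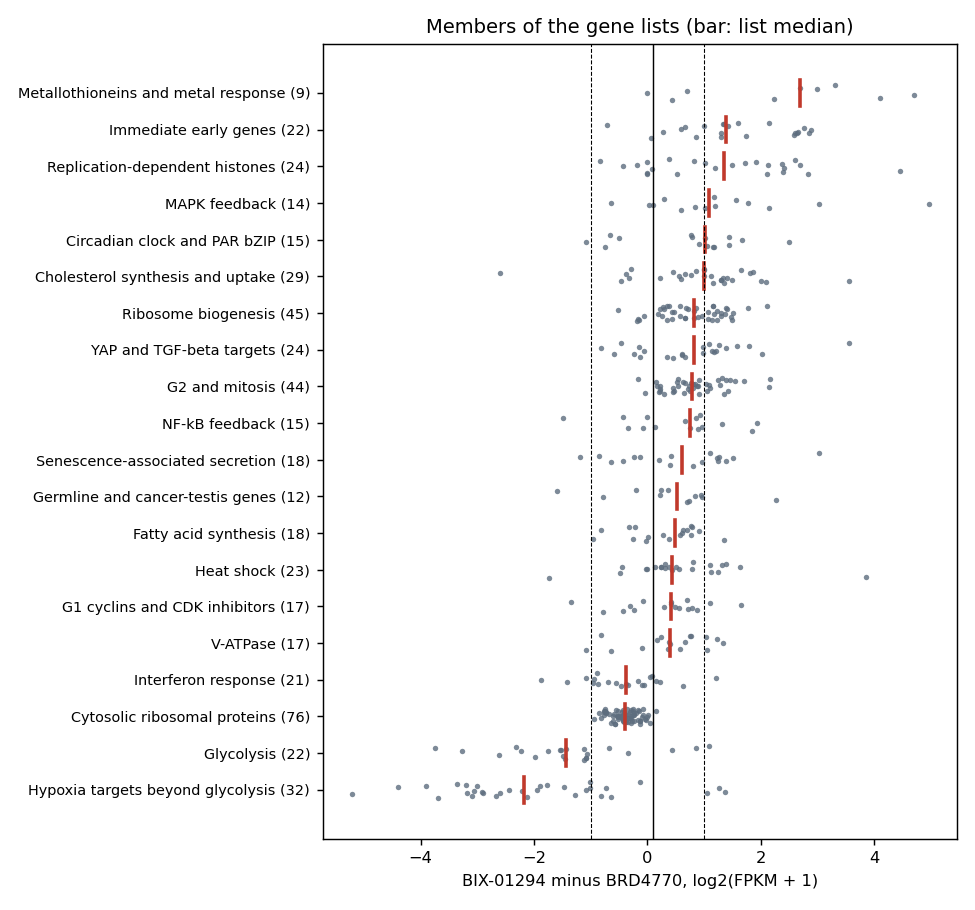
Difference between BIX-01294 and BRD4770 in log2(FPKM + 1) for each tested member (points) of the 20 lists whose median lay at least 0.3 from that of all genes, with list medians as red bars and the number of tested members in brackets; members at 0 in 1 library are included. The solid line is the median of all genes at 0.11 and the dashed lines mark a 2-fold difference; hypoxia and glycolysis lie to the left, and metallothioneins and immediate early genes furthest to the right.

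Single members of the amino acid stress programme of ATF4 differed in both directions, while the list median was above DMSO with both compounds. Of 34 tested members, 9 (26.5%) were at least 2-fold higher with BIX-01294 and 5 (14.7%) at least 2-fold lower. Over all genes these shares were 11.9% and 9.08%, and the relative median was −0.01. Against the shared DMSO library, the relative medians were 0.36 with BIX-01294, 0.63 with BRD4770 and 1.41 with GSK-J4. DDIT3, the factor CHOP that promotes death under prolonged stress, was at 354 FPKM with BIX-01294, 20.3 FPKM with BRD4770 and 4.08 to 41.2 FPKM in the other 8 libraries (4.06 ± 0.51). PPP1R15A, which ends the block of translation, was at 416 and 38.5 FPKM, with 15.3 FPKM with DMSO (3.40 ± 0.17), and TRIB3, a pseudokinase, at 46.3 and 11.2 FPKM, with 43 FPKM with GSK-J4 (1.96 ± 0.37). CHAC1, which degrades glutathione, went the other way, at 2.78 FPKM with BIX-01294, 29 FPKM with BRD4770 and 7.68 FPKM with DMSO (−2.99 ± 0.39). With it went the amino acid transporter SLC1A4 at 5.52 and 25.1 FPKM (−2.0 ± 0.05) and EIF4EBP1, the inhibitor of translation initiation, at 119 and 271 FPKM (−1.18 ± 0.42). DDIT4, described above, and the lipoprotein receptor VLDLR were the remaining lower members.

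Of 29 p53 targets, 6 (20.7%) were higher and 2 (6.9%) were lower, beside 11.9% and 9.08% of all genes, with a relative median of 0.22. GADD45A, a stress sensor that many factors besides p53 induce, was at 806 FPKM with BIX-01294, 125 FPKM with BRD4770 and 42.2 to 108 FPKM in the other 8 libraries (2.67 ± 0.29). PMAIP1, the death factor NOXA, was at 181 and 51.5 FPKM (1.79 ± 0.40). FDXR, a mitochondrial reductase, and XPC, a DNA repair factor, were the 2 lower members, at 31.7 against 75.4 FPKM and 12.5 against 32.7 FPKM. Of 24 targets of NRF2, the factor of oxidative stress, 2 (8.33%) were higher and 1 (4.17%) was lower, with a relative median of −0.12. Over all genes these shares were 11.9% and 9.08%. HMOX1, heme oxygenase 1, was at 138 FPKM with BIX-01294 and 23.8 FPKM with BRD4770, with a wide replicate SD (2.49 ± 0.84). It was at 914 FPKM with GSK-J4, 136 FPKM with 2-PCPA, 68.7 FPKM with GSK343 and 15 FPKM with DMSO.

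Among 23 heat shock genes, 7 were higher and 1 was lower, with a relative median of 0.33 ± 0.38, less than its replicate SD, and of 0.16 after quantile normalization. CRYAB, a small chaperone, was at 86.9 FPKM with BIX-01294 and 5.02 FPKM with BRD4770, where the other 8 libraries had 32.3 to 121 FPKM, so the distance came from a low level with BRD4770 (3.87 ± 0.75). HSPB8, another small chaperone, was at 168 and 53.5 FPKM, with 18.3 to 42.3 FPKM in the others (1.63 ± 0.29), so both compounds were above all of them. HSPA8, the constitutive chaperone HSC70, was the lower member, at 168 FPKM with BIX-01294, 561 FPKM with BRD4770 and 247 to 833 FPKM in the others (−1.73 ± 0.32), and BIX-01294 was below every other library. HSPA1A, the inducible HSP70, could not be compared because its row was at 0 in all 10 libraries while the replicate 2 table listed it at 26.6 to 42.4 FPKM.

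Ribosome assembly and ribosomal proteins differed in opposite directions. Of 45 ribosome biogenesis factors, 18 were at least 2-fold higher with BIX-01294 and 0 lower, with a relative median of 0.71 ± 0.24, and BIX-01294 was the highest of the 10 libraries for 34. Relative to DMSO, the medians were 0.36 with BIX-01294 and −0.20 with BRD4770. WDR43, of the small subunit processome, was at 127 FPKM with BIX-01294, 28.6 FPKM with BRD4770 and 17.6 to 39.8 FPKM in the other 8 libraries (2.11 ± 0.29). The RNA helicase DDX21 was at 149.8 and 51.8 FPKM (1.51 ± 0.26), and the nucleolar GTPase GNL2 at 109 and 38.2 FPKM (1.49 ± 0.17). Of 76 cytosolic ribosomal proteins, 0 were past 2-fold in either direction, but 72 were lower with BIX-01294 at any size, with a relative median of −0.50 ± 0.35, or −0.29 after quantile normalization. RPL3, for example, was at 943 and 1662 FPKM, with 655 to 1711 FPKM in the others (−0.82 ± 0.42). Of 66 nuclear genes of the respiratory chain, 0 were past 2-fold, with a relative median of 0.13 ± 0.32 that turned to −0.13 after quantile normalization.

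Clock genes were among the higher groups. Of 15 tested, 8 were at least 2-fold higher with BIX-01294 and 1 lower, with a relative median of 0.91 ± 0.47, or 0.58 with a pseudocount of 5. CRY1, a repressor of the clock, was at 42.5 FPKM with BIX-01294, 6.69 FPKM with BRD4770 and 4.99 to 13.8 FPKM in the other 8 libraries (2.50 ± 0.44). PER2, its partner, was at 7.15 and 1.57 FPKM, with at most 1.34 FPKM in the others (1.67 ± 0.18), and the nuclear receptor NR1D2 was at 53.7 and 19 FPKM (1.45 ± 0.21). BIX-01294 was the highest library for all 3 genes.

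Autophagy is the theme of the series title. Of 36 core autophagy genes, 4 (11.1%) were at least 2-fold higher with BIX-01294 and 3 (8.33%) lower, close to the 11.9% and 9.08% of all genes, with a relative median of −0.13 ± 0.33. MAP1LC3B, the LC3B protein of the autophagosome membrane, was at 178 FPKM with BIX-01294, 83.2 FPKM with BRD4770, 170.3 FPKM with GSK-J4 and 40 FPKM with DMSO (1.09 ± 0.30). ATG12, of the conjugation system, was at 32.8 and 10.1 FPKM (1.61 ± 0.10), with BIX-01294 above the 9.39 to 15.4 FPKM of the others. ULK1, the initiating kinase, was at 5.48 FPKM with BIX-01294, 12.8 FPKM with BRD4770 and 4.82 FPKM with DMSO (−1.09 ± 0.66), and WIPI1, a lipid-binding factor, at 3.55, 8.2 and 4.1 FPKM (−1.01 ± 0.45). For both transcripts DMSO was the lowest of the other 8 libraries, which reached 14.1 FPKM for ULK1 and 13 FPKM for WIPI1, so BRD4770 lay inside their range and BIX-01294 at its lower end or below.

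Of 16 autophagy receptors, 1 was higher and 4 were lower, among them BNIP3, given above, and its relative BNIP3L at 51.7 and 201 FPKM (−1.94 ± 0.18), both also hypoxia targets. CCPG1, a receptor for the endoplasmic reticulum, was at 6.77 and 26.1 FPKM, with 9.79 to 22.5 FPKM in the others (−1.80 ± 0.12). SQSTM1, the receptor p62, was at 121, 67.1 and, with DMSO, 50.2 FPKM, a difference of 0.84 ± 0.36 that stayed under 2-fold. Of 41 lysosomal genes, 4 (9.76%) were higher and 2 (4.88%) were lower, both below the 11.9% and 9.08% of all genes. The relative median was −0.16 ± 0.43, less than its replicate SD. So few members do not make a trend of the list. The higher ones included TFEB, the master factor of lysosomal genes, at 4.49 and 0.561 FPKM, with 2.92 FPKM with DMSO (1.81 ± 0.30). The others were its relative TFE3 at 96.2 and 43.7 FPKM (1.12 ± 0.31) and the folliculin complex genes FLCN and FNIP1. The lower ones, ARSA and CTSF, encode hydrolases. Of 17 subunits of the proton pump V-ATPase, 4 (23.5%) were higher and 1 (5.88%) was lower. The relative median was 0.30 ± 0.22 (0.13 after quantile normalization), and ATP6V1B2 was at 56.4 and 21.8 FPKM (1.33 ± 0.23).

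Genes tied to the mark itself are given next. Of 22 genes of the EHMT complex and H3K9 methylation, 3 (13.6%) were at least 2-fold higher and 1 (4.55%) lower, beside 11.9% and 9.08% of all genes, with a relative median of −0.10 ± 0.19. ATF7IP, the partner of the methyltransferase SETDB1, was at 10.9 FPKM with BIX-01294, 1.54 FPKM with BRD4770 and 1.78 to 9.14 FPKM in the other 8 libraries (2.23 ± 0.37). CBX5, heterochromatin protein 1 alpha, was at 18.7 and 8.04 FPKM (1.13 ± 0.41), and DNMT3B, a DNA methyltransferase, at 1.34 and 3.94 FPKM (−1.08 ± 0.40), with BIX-01294 below all other libraries. SETDB1 was at 6.26 and 7.65 FPKM (−0.25 ± 0.51), SUV39H1 at 12.7 and 12.6 FPKM against 19.1 FPKM with DMSO (0.01 ± 0.42) and the H3K27 methyltransferase EZH2 at 12.2 and 15 FPKM (−0.28 ± 0.31). These 3 differences were smaller than their replicate SD. KDM1A, the H3K4 demethylase of the series title, was at 45.5 and 34.2 FPKM (0.40 ± 0.23).

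Among 11 H3K9 demethylases, 1 was higher and 1 was lower (9.09% each), close to the 11.9% and 9.08% of all genes. JMJD1C, a relative of the KDM3 enzymes, was at 56 FPKM with BIX-01294, 13 FPKM with BRD4770 and 7.09 to 17.8 FPKM in the others (2.03 ± 0.39). KDM4B, which is also a hypoxia target, was at 2.83 and 13.2 FPKM, with 13 FPKM with GSK-J4 (−1.89 ± 0.43). Of 41 germline and cancer-testis genes, 12 passed the filter, and 1 was higher and 1 lower (8.33% each), again close to the shares of all genes. The relative median was 0.43 ± 0.31, or 0.25 without rows at 0 and 0 with no filter on low values. MAGEA1, a cancer-testis gene on the X chromosome, was already at 95.1 FPKM with DMSO and was at 136 FPKM with BIX-01294 and 70.4 FPKM with BRD4770 (0.94 ± 0.28). The higher member, MAGEA3, was at 3.83 FPKM with BIX-01294 and 2.62 FPKM with DMSO and was listed at 0 with BRD4770, and its near-identical copies make the split of reads uncertain. The lower member was TDRKH, a factor of the piRNA pathway, at 0.998 and 5.01 FPKM (−1.59 ± 0.39).

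Interferon response genes, 21 of 40 tested, had 1 higher (4.76%) and 3 lower members (14.3%), beside 11.9% and 9.08% of all genes. The relative median of the list was −0.49 ± 0.11. It was −0.71 with a pseudocount of 0.1, −0.23 with a pseudocount of 5 and −0.01 with no filter on low values. ISG20, an exonuclease, was at 3.57 FPKM with BIX-01294, 15.9 FPKM with BRD4770 and 14.5 FPKM with GSK-J4 and was listed at 0 with DMSO (−1.88 ± 0.48). SAMD9 was at 2.11 and 7.33 FPKM, with 3.05 to 5.37 FPKM in the others (−1.42 ± 0.26), so BIX-01294 was the lowest library and BRD4770 the highest. IFI44 was at 1.91 and 5.17 FPKM, with 9.96 FPKM with DMSO (−1.08 ± 0.48). DMSO was the highest of the other libraries (4.49 to 9.96 FPKM) and was at 5.24 FPKM in the replicate 2 table. BRD4770 thus lay inside their range for IFI44, and BIX-01294 below it. The aryl hydrocarbon receptor target CYP1A1 was at 0 and 0.414 FPKM and CYP1B1 at 0 in both, below the filter.

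**Figure D4:**
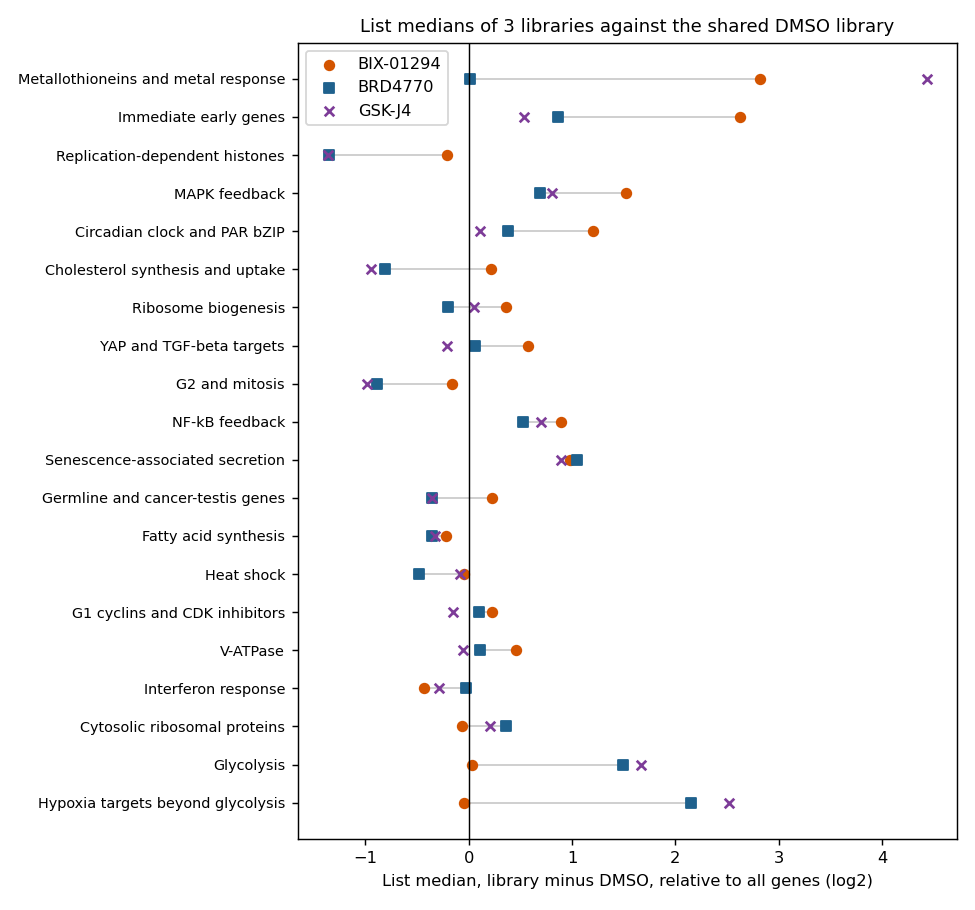
Median of each of the same 20 lists against the shared DMSO library in log2(FPKM + 1), relative to the median of all genes, for BIX-01294 (circles), BRD4770 (squares) and GSK-J4 (crosses). BRD4770 and GSK-J4 lie together for hypoxia, glycolysis, cholesterol synthesis, mitosis and histone genes, and BIX-01294 lies furthest right for immediate early genes, ribosome biogenesis and clock genes.

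Some of the largest single differences fell outside the lists. CDO1, cysteine dioxygenase, was at 32.7 FPKM with BIX-01294, 1.91 FPKM with BRD4770 and at most 6.1 FPKM in the other 8 libraries (3.53 ± 0.12). SNHG17, a host transcript of small nucleolar RNAs, was at 101 and 8.09 FPKM, with 5.1 to 9.51 FPKM in the others (3.49 ± 0.27), and SNAPC1, of the complex that transcribes small nuclear RNAs, was at 268 and 23.8 FPKM, with 79.2 FPKM with DMSO (3.44 ± 0.43). For CDO1 and SNHG17 BIX-01294 alone was high, and for SNAPC1 BIX-01294 was the highest library and BRD4770 the lowest. TNNT2, cardiac troponin T, was at 47.9 FPKM with BIX-01294, 2.08 FPKM with BRD4770 and 44.2 FPKM with DMSO, so BIX-01294 was near the control and BRD4770 below it (3.99 ± 0.72). A low level was not particular to BRD4770: the other 8 libraries ran from 1.25 FPKM, with SAHA, to 48.7 FPKM, with a median of 17.2. MLLT10P1, a pseudogene, was at 12.7 FPKM with BIX-01294 and was listed at 0 with BRD4770. ODZ2 was at 20.7 FPKM with BIX-01294 and at 0 in the other 9 libraries, but the symbol is an older name of TENM2, whose own row was at 24.9 and 21.5 FPKM, so this row does not show a gene found in 1 library alone. SNURF was at 0.775 and 50.2 FPKM with a replicate SD of 2.73, and its values in the replicate 2 table equalled those of SNRPN, with which it shares a transcript. That difference cannot be set against the ones above.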

How the data were processed

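RNA of U2OS cells was sequenced in 14 libraries. Per the labels' protocols, poly(A) mRNA was isolated and a Rubicon ThruPLEX kit served for library construction. Strand is not stated, so values of overlapping genes, antisense genes and close copies are uncertain. Per the submitters' processing notes, the authors used FastQC, cutadapt and TopHat2 with the hg19 build, and they deposited FPKM values per gene. The program that computed FPKM is not given in the sources used here. The absolute depth is unknown, and relative depth was read from ratios of FPKM values up to 1 between libraries of the table.

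Both compounds were compared within the replicate 1 table (28502 rows, 10 libraries); 1 row named unknown was left out and 0 columns were unused. The replicate 2 table (25209 rows, 4 libraries) entered only the yardstick and the row checks. Levels were log2(FPKM + 1), the filter on low values was a mean over the 10 libraries of 1 FPKM or more, and a gene was called from a difference of at least 1 (2-fold). With 1 library per compound there was no test. The replicate SD of a difference was the residual SD after group and table effects in the 4 groups with 2 replicates, multiplied by the square root of 2. The calculation was tested on simulated data. Promoters came from RefSeq on GRCh38.p14, matched by symbol.

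The 40 lists, 39 with at least 5 tested members, and the members were chosen with earlier results of these data known. Genes were named by a rule: a fixed set, the 15 largest differences per direction with at least 5 FPKM in the higher library (small RNA, antisense and clone rows passed over), and up to 4 members of each list at least 0.3 from the median of all genes. This gave 113 genes, not all of them described in the text. A few genes are not reported here. Further list members, the exceptions to a list's direction above all, and the rows ODZ2, SNURF, RPS18 and HSPA1A were singled out after their values were seen. Alternatives were pseudocounts of 0.1 and 5, no filter, a filter at a mean of 5 FPKM, median centring, quantile normalization, scaling to equal sums (TPM scaling), small RNA and clone rows left out, and a 3-fold threshold. Python 3.11.15 with numpy 2.4.6, pandas 2.3.3 and matplotlib 3.10.9 was used.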

Additional observations from a re-analysis of the deposited data

How the results depend on the processing

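With 1 library per compound, no replicate could be left out, and no setting shows how far a second culture would differ. No paired analysis was possible because each compound has 1 library and the comparison comes from no test. A pseudocount of 5 gave 771 higher and 349 lower genes, a mean of at least 5 FPKM left 582 lower genes, and a 3-fold threshold left 463 higher and 419 lower genes. The other settings gave counts within 1.5 times of those reported. After the data were seen, filtering without 2-PCPA (1540 higher, 1176 lower) and leaving out rows listed at 0 in either library (1450 and 1018) were added. None of the 88 named genes with a difference of at least 1 and none of the 14 lists with a relative median of at least 0.5 turned sign under these settings. For genes this was largely fixed in advance. A pseudocount cannot turn the sign of a gene, filters leave its difference unchanged, and the normalizations shifted values little. Median centring cannot change a relative list median. Smaller values did: 3 named genes (EHMT1, WIZ and SUV39H1, each within its replicate SD of 0) turned under median centring, quantile normalization and TPM scaling, with EHMT1 going from 0.05 to −0.05 under median centring. Of 39 lists, 11 turned under at least 1 setting, among them autophagy receptors (from 0.01 to −0.16) and the respiratory chain (from 0.13 to −0.13), both under quantile normalization. Of 1074 values of named genes under an alternative, 105 moved by more than the replicate SD, and of 390 list medians 24 did. Both totals include settings that cannot move a value, such as filters for genes and median centring for lists. Of the 20 lists at least 0.3 from all genes, 17 kept their sign under every alternative run; germline genes, senescence-associated secretion and replication-dependent histones went to 0 with no filter on low values. The shallower BIX-01294 library limits what can be read from low genes. Lower genes made up 14.7% of genes with a mean of 1 to 5 FPKM, 8.89% of those from 5 to 20 FPKM and 3.44% of those at 20 FPKM or more, where higher genes made up 10.7%, 12.4% and 12.7%.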
